A study of Mus musculus with 28 samples.

Results

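The 10 endothelial genes described here are Cldn5, Cdh5, Pecam1, Emcn, Ly6c1, Itm2a, Flt1, Tek, Slco1a4 and Abcb1a. They are a list of named genes of the vessel lining, drawn up with earlier results of these data known. All 10 were matched by symbol to an Ensembl identifier among the 48709 in the count files, and all 10 were among the 17009 genes that passed the low-count filter. They were measured in RNA of hippocampal CA1, dissected under the microscope, from CamkdeltaC transgenic mice and wildtype littermates. There were 10 libraries of wildtype mice on vehicle, 9 of transgenic mice on vehicle and 9 of transgenic mice on vorinostat, an inhibitor of histone deacetylases. Agents were given in the drinking water for 4 weeks from 2 months of age, so all mice were 3 months old, and males and females were included. As background, the transgene codes for a splice form of CaM kinase II and is known from a mouse model of heart failure in which it is produced in heart muscle. Wildtype mice on vorinostat were not analysed here.

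Endothelial cells of brain vessels form the blood-brain barrier. Tight junctions seal the cells to each other, transporters and efflux pumps in their membranes select what crosses, and receptors for growth factors of the VEGF and angiopoietin families keep the vessel wall in place. These cells are a small part of hippocampal tissue. In a bulk library a lower level of their transcripts can come, among other sources, from fewer endothelial cells or from less RNA per cell. Such sources cannot be told apart here.

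The libraries held 20230085 to 33191857 counts each. Mitochondrially encoded genes took 6.39 to 7.48% of counts in 4 libraries, namely wildtype vehicle 2 and transgenic vorinostat 6, 7 and 9, and 2.84 to 4.11% in the other 24. Transcripts of hemoglobin genes were at 75.9 to 135 CPM (counts scaled to the library total in the usual way) in those 4 libraries and at 16.9 to 52.1 in the other 24, so results are given with and without the 4. Markers of CA1 pyramidal neurons, 6 of 6 tested, summed to 918 to 1511 CPM over the 28 libraries, and dentate granule markers, 5 of 5 tested, to 25.7 to 101. The transcript Xist, which is made from the inactive X chromosome, was abundant in 6 of the 10 wildtype libraries, in 3 of the 9 transgenic libraries on vehicle and in 5 of the 9 on vorinostat.

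Between the groups, 0 of the 10 endothelial genes passed the test in any of the 3 comparisons. The test was the quasi-likelihood test of edgeR over all 28 libraries, with p-values adjusted by Benjamini and Hochberg over 17009 genes and a threshold of 0.05. Among all genes 0 (0%) passed in each comparison as well, with 227, 2449 and 2141 at an unadjusted p under 0.05 in the comparisons of transgenic with wildtype mice on vehicle, of vorinostat with vehicle in transgenic mice, and of vorinostat with wildtype mice. DESeq2 called 0, 1 and 0 genes and limma-voom 0 in each. Within the groups the members went apart in the 4 libraries with a high mitochondrial share: Flt1 and Cdh5 were at their lowest there (2 of 10 below all other libraries, against 11.2% of all genes) and Itm2a was at its highest (1 of 10 above, against 9.99% of all genes). These shares are near those of all genes.

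The middle 90 coding bases of 5 transcripts are shown, picked after their values were seen because these members differed most in the 4 libraries, and are printed 5′ to 3′ from the GENCODE transcripts of GRCm38, with G and C in capitals. The first 3 had lower mean levels in the 4 libraries and the last 2 had higher ones.
Cdh5: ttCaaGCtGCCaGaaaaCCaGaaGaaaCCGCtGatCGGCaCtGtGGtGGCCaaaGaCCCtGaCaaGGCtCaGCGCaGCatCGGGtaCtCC
Flt1: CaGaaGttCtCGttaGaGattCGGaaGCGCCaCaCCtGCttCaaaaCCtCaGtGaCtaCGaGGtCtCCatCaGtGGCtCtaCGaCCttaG
Cldn5: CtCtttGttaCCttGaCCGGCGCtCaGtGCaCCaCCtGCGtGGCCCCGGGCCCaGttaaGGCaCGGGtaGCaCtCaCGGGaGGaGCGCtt
Itm2a: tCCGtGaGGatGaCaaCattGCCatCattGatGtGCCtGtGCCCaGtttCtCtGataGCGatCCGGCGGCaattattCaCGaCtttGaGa
Slco1a4: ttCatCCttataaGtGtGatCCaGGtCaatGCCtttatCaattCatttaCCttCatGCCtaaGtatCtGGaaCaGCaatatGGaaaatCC
G and C made up 56.7% of this stretch in Cdh5, 51.1% in Flt1, 64.4% in Cldn5, 48.9% in Itm2a and 36.7% in Slco1a4. The other members did not all follow this order: the same stretch held 30.0% in Abcb1a and 40.0% in Tek, whose levels in the 4 libraries differed by -0.02 and -0.16 (log2). Over the whole transcript they made up 52.2% in Cdh5, 50.5% in Flt1, 60.5% in Cldn5, 41.7% in Itm2a and 40.3% in Slco1a4, with 45.2% in Abcb1a and 47.1% in Tek.

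Levels of the endothelial genes are given in CPM of the library total scaled by TMM, and compared between genes only per kilobase of exon. The length was that of all annotated exons of a gene, and the order below depends on that choice. It was 1677 bases for Ly6c1 and 13504 for Flt1, whose longest coding transcripts have 844 and 6895 bases. For Cldn5 and Itm2a both lengths were the same, at 1416 and 1744 bases. In wildtype vehicle libraries the highest level per kilobase was that of Itm2a, at 17.7 ± 1.78 CPM per kilobase (SD, n = 10). Cldn5 followed at 11.3 ± 3.51 and Ly6c1 at 7.89 ± 0.866. Slco1a4 was at 4.53 ± 0.435, Flt1 at 4.16 ± 1.07, Abcb1a at 3.33 ± 0.379 and Tek at 2.79 ± 0.442. Pecam1 and Cdh5 were close, at 2.24 ± 0.373 and 2.15 ± 0.655, and Emcn was the lowest at 0.539 ± 0.0947. Of neighbours in this order, the ranges over the 10 libraries were separate only between Ly6c1 and Slco1a4, and all other neighbouring ranges overlapped.

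The junction genes were Cldn5, Cdh5 and Pecam1. Cldn5 (ENSMUSG00000041378; GRCm38 chr16:18776847-18778262, plus strand, 1 exon) codes for claudin-5, the main sealing protein of endothelial tight junctions. Its lowest, median and highest levels were 7.32, 15.8 and 26.0 CPM in wildtype vehicle, 11.4, 17.4 and 20.4 in transgenic vehicle, and 9.30, 17.4 and 24.1 in vorinostat libraries. Wildtype vehicle 2 was the lowest of all, vorinostat 7 the next, and the 3 groups overlapped. The log2 fold change of vorinostat against transgenic vehicle was 0.03 (SE 0.165, edgeR adjusted p = 0.924), and 0.18 (SE 0.142) without the 4 libraries.

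Cdh5 (ENSMUSG00000031871; chr8:104101625-104144511, plus strand, 13 exon blocks) codes for VE-cadherin, the adhesion molecule of endothelial adherens junctions. Its lowest, median and highest levels were 2.60, 10.1 and 12 CPM in wildtype vehicle, 7.84, 9.30 and 11.7 in transgenic vehicle, and 3.76, 8.72 and 12.5 in vorinostat libraries. The lowest values were all in the 4 libraries, with 2.60 CPM in wildtype vehicle 2 and 5.59, 3.76 and 5.73 CPM in vorinostat 6, 7 and 9, while the other 24 ran from 6.20 to 12.5 CPM. Vorinostat against transgenic vehicle gave a log2 fold change of -0.18 (SE 0.201, edgeR adjusted p = 0.642), which was 0.08 (SE 0.125) without the 4 libraries. Wildtype vehicle 2 alone had 58 counts of Cdh5, and every other wildtype vehicle library lay above 6 CPM.

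Pecam1 (ENSMUSG00000020717; chr11:106654217-106750628, minus strand, 17 exon blocks) codes for CD31, an adhesion molecule at the contacts between endothelial cells. Its mean level was 14.0 ± 2.32 CPM over the wildtype libraries (SD, n = 10), 13.5 ± 1.79 for transgenic mice on vehicle and 14.3 ± 1.96 for those on vorinostat (SD, n = 9 each). The groups overlapped, and the lowest library was again wildtype vehicle 2, at 9.56 CPM. The fold change with vorinostat was 0.08 on the log2 scale (SE 0.0982, edgeR adjusted p = 0.663).

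The surface genes were Emcn, Ly6c1 and Itm2a. Emcn (ENSMUSG00000054690; chr3:137341067-137432185, plus strand, 12 exon blocks) codes for endomucin, a mucin of the surface of capillaries and veins. It was the least abundant of the 10, with 48 to 124 counts per library and means of 2.91 ± 0.512, 2.84 ± 0.762 and 3.00 ± 0.643 CPM in wildtype vehicle, transgenic vehicle and vorinostat libraries. Vorinostat 6, 7 and 9 were at 3.71, 3.81 and 3.68 CPM, above the other 6 vorinostat libraries, whose range was 2.15 to 3.35 CPM. The log2 fold change of vorinostat against transgenic vehicle was 0.08 (SE 0.146, edgeR adjusted p = 0.788) and turned to -0.11 (SE 0.159) without the 4 libraries.

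Ly6c1 (ENSMUSG00000079018; chr15:75044018-75048830, minus strand, 6 exon blocks) codes for a lipid-anchored antigen of brain endothelium that some leukocytes also carry. Lowest, median and highest were 10.4, 13.3 and 15.8 CPM in wildtype vehicle, 8.54, 12.8 and 14.9 in transgenic vehicle, and 11.8, 14.5 and 19.2 in vorinostat libraries. The 3 vorinostat libraries above all transgenic vehicle libraries were those with a high mitochondrial share, at 19.2, 18.7 and 15.8 CPM. With vorinostat the log2 fold change was 0.23 (SE 0.0997, edgeR adjusted p = 0.345), and 0.06 (SE 0.0948) without the 4 libraries. Reads of the near copy Ly6c2 were few, 30 counts over all libraries.

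Itm2a (ENSMUSG00000031239; chrX:107397099-107403376, minus strand, 6 exon blocks) codes for a membrane protein with a BRICHOS domain that is known as a transcript of brain endothelium. Its lowest, median and highest levels were 27.8, 30.0 and 37.7 CPM in wildtype vehicle, 26.3, 30.1 and 34.1 in transgenic vehicle, and 30.3, 34.3 and 49.7 in vorinostat libraries. The 4 highest of all libraries were the 4 with a high mitochondrial share, at 37.7 CPM in wildtype vehicle 2 and 49.7, 42.1 and 47.0 in vorinostat 6, 7 and 9, against 26.3 to 36.9 CPM in the other 24. All 9 vorinostat libraries lay above the transgenic vehicle mean of 30.0 CPM, and 5 of 9 lay above every transgenic vehicle library. The log2 fold change of 0.32 (SE 0.0834) had an edgeR adjusted p of 0.345 and ranked 12 by p among all genes. Without the 4 libraries it was 0.14 (SE 0.0559, edgeR adjusted p = 0.966).

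The receptor genes were Flt1 and Tek. Flt1 (ENSMUSG00000029648; chr5:147561604-147726011, minus strand, 33 exon blocks) codes for VEGF receptor 1, which also circulates as a soluble form that traps the ligand. Its lowest, median and highest levels were 18.6, 60.0 and 66.4 CPM in wildtype vehicle, 46.6, 58.5 and 68.1 in transgenic vehicle, and 31.9, 62.7 and 70.6 in vorinostat libraries. All 4 libraries with a high mitochondrial share were below all others, at 18.6 CPM in wildtype vehicle 2 and 34.7, 31.9 and 39.3 in vorinostat 6, 7 and 9, while no other library was under 46.6 CPM. The log2 fold change of vorinostat against transgenic vehicle was -0.07 (SE 0.173, edgeR adjusted p = 0.840), and 0.16 (SE 0.0880) without the 4 libraries.

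Tek (ENSMUSG00000006386; chr4:94739289-94874976, plus strand, 23 exon blocks) codes for Tie2, the receptor of the angiopoietins. Its mean level was 13.2 ± 2.08 CPM over the wildtype libraries (SD, n = 10), 12.4 ± 1.78 for transgenic mice on vehicle and 14.0 ± 2.01 for those on vorinostat (SD, n = 9 each). Wildtype vehicle 2 was the lowest at 7.54 CPM, while vorinostat 6, 7 and 9 lay inside the range of the other vorinostat libraries, at 13.5, 11.7 and 16.3 CPM. With vorinostat the log2 fold change was 0.18 (SE 0.103, edgeR adjusted p = 0.368), and 0.19 (SE 0.0879, edgeR adjusted p = 0.966) without the 4 libraries.

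The transporter genes were Slco1a4 and Abcb1a. Slco1a4 (ENSMUSG00000030237; chr6:141805440-141856199, minus strand, 17 exon blocks) codes for an organic anion transporter of the blood-brain barrier. Its lowest, median and highest levels were 24, 29.5 and 32.8 CPM in wildtype vehicle, 19.4, 28.3 and 33.7 in transgenic vehicle, and 26.4, 30.9 and 49.7 in vorinostat libraries. Vorinostat 6, 7 and 9, at 44.9, 48.6 and 49.7 CPM, stood above every other library, while the other 6 vorinostat libraries ran from 26.4 to 32.3 CPM and wildtype vehicle 2 was at 28 CPM. Vorinostat against transgenic vehicle gave the largest log2 fold change of the 10 genes, 0.37 (SE 0.113, edgeR adjusted p = 0.345), which was 0.11 (SE 0.0894) without the 4 libraries. The related genes Slco1a1, Slco1a5 and Slco1a6 had means of 0.0081, 0.0864 and 0.0166 CPM.

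Abcb1a (ENSMUSG00000040584; chr5:8660077-8748575, plus strand, 28 exon blocks) codes for P-glycoprotein, the efflux pump of the barrier. Its mean level was 18.3 ± 2.08 CPM over the wildtype libraries (SD, n = 10), 18.3 ± 3.20 for transgenic mice on vehicle and 20.3 ± 1.16 for those on vorinostat (SD, n = 9 each). The vorinostat libraries spanned 18.5 to 22.0 CPM, all above the transgenic vehicle mean and within its range of 13.1 to 23.3 CPM. The log2 fold change was 0.15 (SE 0.0839, edgeR adjusted p = 0.363), and 0.13 (SE 0.0871) without the 4 libraries. The paralog Abcb1b was at 3.70 CPM, and a predicted antisense gene with 139 counts in all overlapped 553 exonic bases of Abcb1a.

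**Figure D1:**
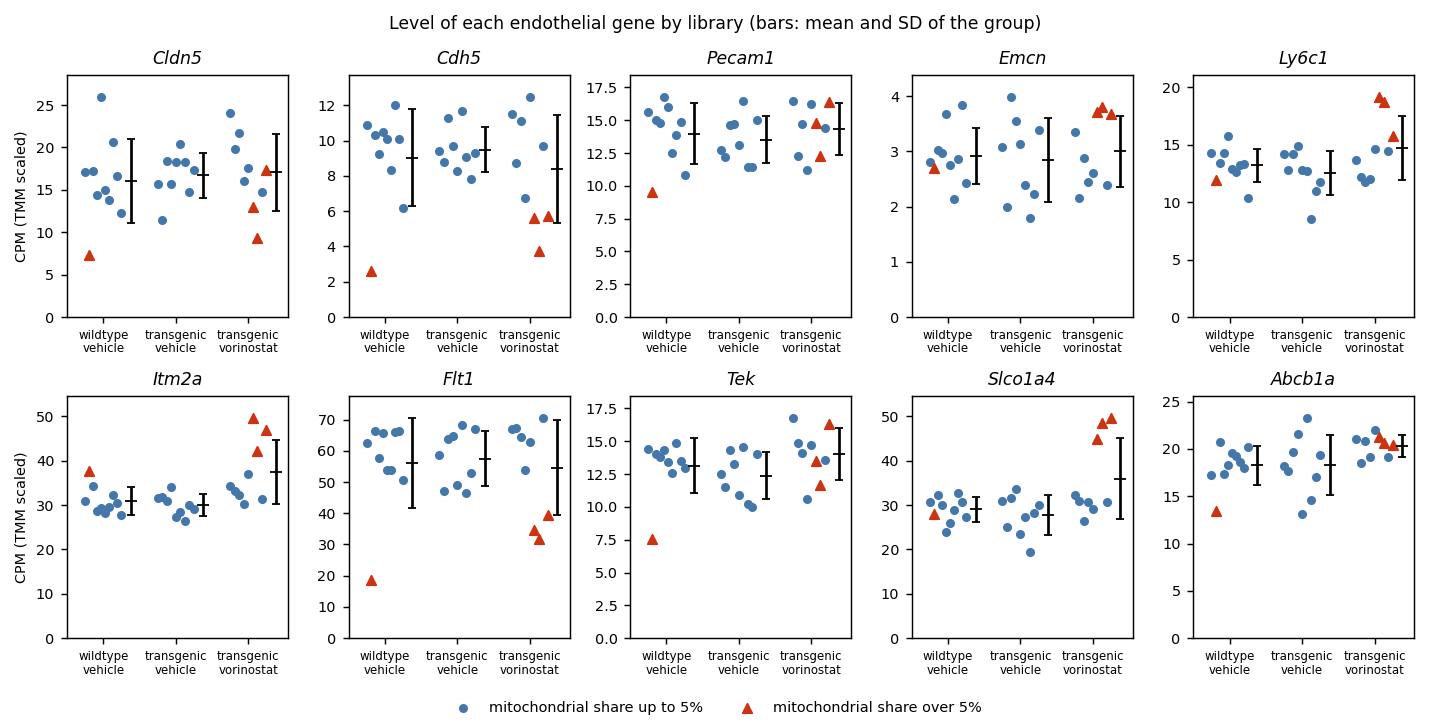
Level of each of the 10 endothelial genes in CPM (linear axes from 0) by library and group. Circles are libraries with a mitochondrial share up to 5%, triangles the 4 libraries over 5%, and bars the mean and SD of a group. The triangles lie under all circles for Flt1 and Cdh5 and above all circles for Itm2a, and the 3 vorinostat triangles of Slco1a4 sit between 44.9 and 49.7 CPM.

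With vorinostat most of the 10 genes had positive fold changes, none of them past the threshold. In vorinostat against transgenic vehicle 8 of 10 had a positive log2 fold change, with a median of 0.116, where 50.9% of all genes were positive and the median was 0.003. Unadjusted p-values under 0.05 were found for 3 of 10, all in the direction of higher levels (Itm2a, Slco1a4 and Ly6c1), where 7.75% of all genes reached that in this direction, and for 0 of 10 in the other (6.64%). Without the 4 libraries 9 of 10 were positive, with a median of 0.120, where 48.3% of all genes were positive and their median was -0.003. In that fit 2 of 10 (Itm2a and Tek) had an unadjusted p under 0.05, and 664 of 17292 genes in either direction. The range was then -0.11 to 0.19, and adjusted p in edgeR were 0.966 to 0.970. The members varied together between libraries, so their directions are not independent of each other. The members with the highest log2 fold changes differed between the fits: Slco1a4, Itm2a and Ly6c1 with all libraries, and Tek, Cldn5 and Flt1 without the 4. By unadjusted edgeR p Itm2a came first of the 10 in both fits, at 0.000556 with all libraries and 0.0192 without the 4.

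In vorinostat against wildtype vehicle, which uses the same vorinostat libraries, 8 of 10 were positive with a median of 0.089, where the median over all genes was 0.006. Slco1a4 was at 0.31 (SE 0.110) and Itm2a at 0.28 (SE 0.0812), each with an edgeR adjusted p of 0.384, and 2 of 10 had an unadjusted p under 0.05 towards higher levels (6.87% of all genes) and 0 towards lower (5.71%). Without the 4 libraries 7 of 10 were positive and the median was 0.041, with Itm2a at 0.13, Cldn5 at 0.15 and Slco1a4 at 0.04. In transgenic against wildtype vehicle the values ran from -0.09 to 0.07, 4 of 10 were positive and the median was -0.046, with an edgeR adjusted p of 1 for each, and 0 had an unadjusted p under 0.05 (0.670% of all genes higher and 0.664% lower). Leaving out the 4 libraries takes only wildtype vehicle 2 from this comparison. It gave 0 of 10 positive, a median of -0.063 and a range of -0.15 to -0.01, where 52.7% of all genes were positive. The same transgenic vehicle libraries serve in the comparison of vorinostat with transgenic vehicle, so these comparisons are not independent. In all 3 comparisons the groups overlapped for each of the 10 genes, and groups that did not overlap were found for 0% of all genes.

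**Figure D2:**
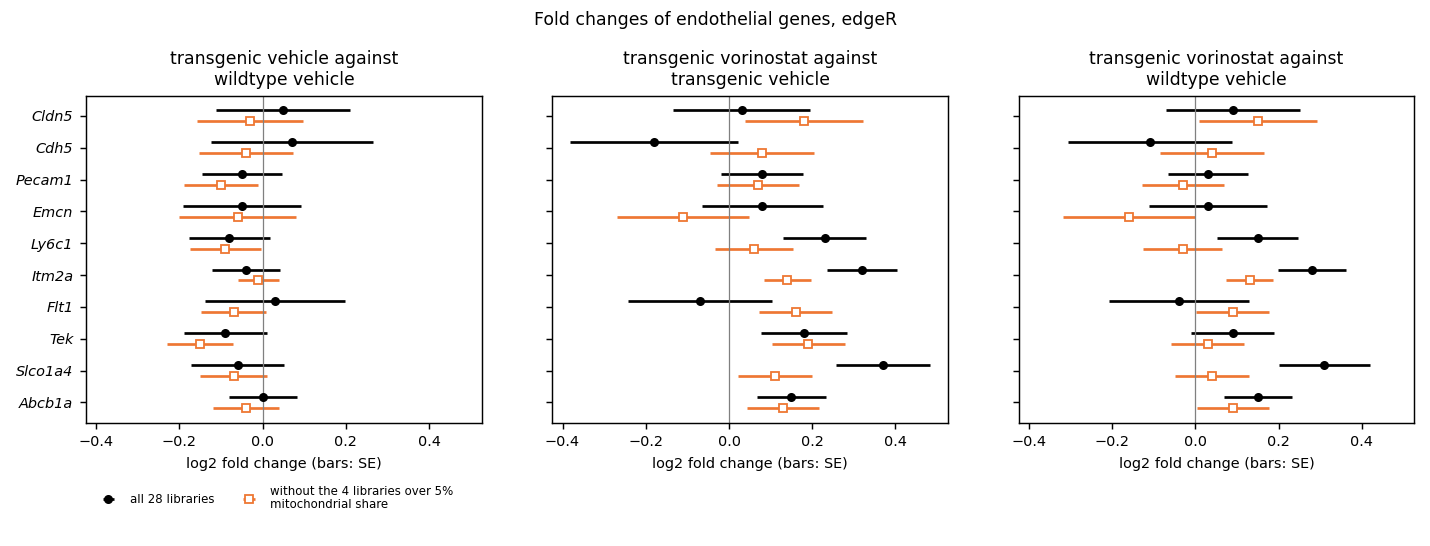
Log2 fold change with its SE for each endothelial gene in the 3 comparisons, from edgeR with all 28 libraries (filled circles) and without the 4 libraries over 5% mitochondrial share (open squares). In vorinostat against transgenic vehicle Slco1a4 moved from 0.37 to 0.11 and Itm2a from 0.32 to 0.14, while Flt1 went from -0.07 to 0.16.

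The endothelial genes differed among themselves in the 4 libraries. Of the 10 genes, 2 were below the other 24 libraries in all 4 (Flt1 and Cdh5; 11.2% of all genes) and 1 was above them in all 4 (Itm2a; 9.99% of all genes). Both counts are near the shares of all genes. Mean log2 CPM differed by -1.17 for Cdh5, -0.99 for Flt1 and -0.61 for Cldn5, and by 0.54 for Slco1a4, 0.51 for Itm2a, 0.32 for Ly6c1 and 0.31 for Emcn. Tek, Pecam1 and Abcb1a were at -0.16, -0.10 and -0.02. Their sum over the 10 genes was 139 to 232 CPM in the 4 libraries and 166 to 240 CPM in the other 24, and these ranges overlapped.

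Within the vorinostat group, the 3 libraries with a high share were below the other 6 for 2 genes (Flt1 and Cdh5; 20.5% of all genes) and above them for 4 (Emcn, Ly6c1, Itm2a and Slco1a4; 19.9% of all genes). The log2 differences there were -0.98 for Cdh5, -0.86 for Flt1 and 0.67 for Slco1a4. Wildtype vehicle 2 differed from the other 9 wildtype libraries by more, at -1.85 for Cdh5, -1.68 for Flt1, -1.17 for Cldn5 and -0.86 for Tek, while Itm2a was at 0.32 and Slco1a4 at -0.05. Flt1 and Cdh5 were thus low in all 4 libraries, though the number of members below is near the share of all genes. Tek was low in wildtype vehicle 2 and not in the 3 vorinostat libraries (-0.02), Cldn5 was at 17.4 CPM in vorinostat 9, and Slco1a4 was high in the 3 vorinostat libraries.

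These differences went with the base composition of the transcripts. Across the 10 genes the difference between the 4 and the 24 libraries had a Pearson r of -0.719 and a Spearman rho of -0.842 with transcript GC content (n = 10 genes measured in the same libraries, which are not independent replicates). Slco1a4, Emcn and Itm2a, with 40.3 to 41.7% G and C, were higher in the 4 libraries, and Cldn5, with 60.5%, was lower. The same slope ran through the transcriptome, with a rho of -0.599 over 16961 genes and medians per GC class going from 0.33 in the lowest of 8 classes to -0.32 in the highest. Flt1 and Cdh5, at 50.5 and 52.2%, lay far below the median of their class, which was -0.05 for both. For each library, the deviation of every gene's log2 CPM from its mean over the 24 libraries was also set against GC. This rho was -0.603 to -0.408 in the 4 libraries and -0.472 to 0.593 in the others, so the ranges overlapped. With the GC trend taken out of every library, a setting added after seeing the data, vorinostat against transgenic vehicle gave 0.23 for Ly6c1. Its value in the main fit was 0.23 as well. Slco1a4 was at 0.21, Itm2a at 0.19, Cldn5 at 0.16, Tek at 0.14, and Pecam1 and Abcb1a at 0.09 each. Emcn, Flt1 and Cdh5 were at -0.05, -0.06 and -0.14. The part of base composition in these differences was not tested beyond that.

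**Figure D3:**
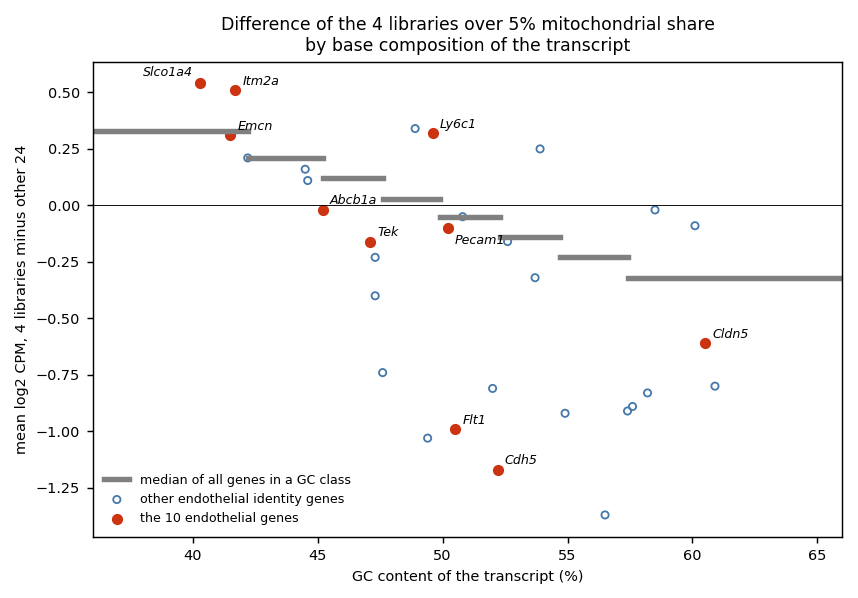
Mean log2 CPM of the 4 libraries over 5% mitochondrial share minus that of the other 24, against the GC content of the longest coding transcript. Filled points are the 10 endothelial genes, open points the 21 other endothelial identity genes, and grey bars the median of all genes in 8 GC classes, of which the outermost run past the axis. Slco1a4 and Itm2a lie at 0.54 and 0.51 on the left, and Cdh5, Flt1 and Cldn5 lie under the grey bars.

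Other genes of endothelial identity were mostly on the low side in the 4 libraries. Of 21 such genes 16 had a lower mean in the 4 libraries, 7 were below all other 24 libraries (11.2% of all genes) and 0 were above them (9.99% of all genes). The 7 were Kdr, Eng, Tie1, Ptprb, Nos3, Vwf and Podxl. Kdr, the main VEGF receptor, was at 4.76 to 8.73 CPM in the 4 libraries and 10.4 to 18.1 in the others. Vwf, the von Willebrand clotting factor, was at 2.78 to 6.85 CPM against 8.36 to 17.3, and Ptprb, a phosphatase that acts on Tie2, at 17.4 to 30.0 CPM against 31.8 to 53.9. Cd34 and Adgrl4 were the other way, at 71.5 to 80.7 CPM against 52.4 to 73.4 and at 10.5 to 14.8 CPM against 7.55 to 14.0. The median log2 difference of all 21 genes was -0.32, and its rho with GC over these genes was -0.408.

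Markers of cells next to the endothelium were read in the same libraries. Pericyte markers, 10 of 10 tested and none at 0 in every library, summed to 180 to 257 CPM in wildtype vehicle, 198 to 223 in transgenic vehicle and 187 to 245 in vorinostat libraries, with 180 to 233 CPM in the 4. Erythroid markers, 4 of 5 tested, summed to 21.1 to 106, 17.9 to 46.1 and 36.7 to 135 CPM by group in the same order, and to 77.3 to 135 CPM in the 4 against 17.9 to 57.1 in the other 24. Microglia markers, 9 of 9 tested, summed to 309 to 405, 330 to 409 and 316 to 453 CPM, with 388 to 453 CPM in the 4. Erythroid and microglial levels were thus on the high side in the 4 libraries. CA1 pyramidal markers summed to 918 to 1221 CPM in the 4 against 1064 to 1511 in the other 24, with 5 of 6 lower. The median log2 difference of the 4 libraries was -0.34 for these, -0.34 for dentate granule, -0.21 for pericyte, 0.27 for smooth muscle, 0.30 for oligodendrocyte, 0.31 for microglia and 1.64 for erythroid markers, beside -0.32 for the other endothelial identity genes. The part of these cells in the endothelial values was not tested. Lymphocyte and neutrophil markers were scarce, with 2 of 9 tested, and Cd3e, Cd3g, S100a8 and S100a9 did not pass the low-count filter.

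In the 24 libraries with a mitochondrial share up to 5%, the endothelial genes varied together. After removal of the group means, 44 of the 45 pairs had a positive Pearson r between their log2 CPM, with a median of 0.51 and a range of -0.10 to 0.84. By a permutation test within groups with 100000 resamples, 27 of the 45 pairs had an adjusted p under 0.05, adjusted over the 45 pairs, and 28 by Spearman's rho. The highest pair was Cdh5 with Pecam1, both junction genes, at r = 0.84 and rho = 0.78 (permutation p = 1e-05 and 4e-05, adjusted p = 0.00045 and 0.0009). The former is the smallest p that the resampling can give. The receptors Flt1 and Tek had r = 0.79 and rho = 0.78 (permutation p = 2e-05 and 0.00011, adjusted p = 0.00045 and 0.0016), and Itm2a and Slco1a4 had r = 0.64 and rho = 0.63 (permutation p = 0.0014 and 0.0023, adjusted p = 0.0082 and 0.012). Without the 2 libraries farthest from the median of the first gene, r was 0.74, 0.77 and 0.56 for these 3 pairs. Over the 45 pairs the median r was then 0.43 and the lowest -0.00, with 44 positive. Some pairs with an adjusted p under 0.05 fell further, such as Ly6c1 with Slco1a4 from 0.52 to 0.19. Cldn5 was near 0 with some members, at r = -0.10 with Slco1a4, 0.02 with Abcb1a and 0.05 with Itm2a, and at 0.59 with Cdh5. The lowest median r of a member with the other 9 was that of Abcb1a, at 0.42, and the highest that of Pecam1, at 0.62. Pairs of an endothelial gene with any other tested gene had a median r of -0.00, and 2.81% of them were over 0.5, against 23 of the 45 pairs among the members. All genes of a library share its depth and its GC slope. Over all 28 libraries, where the 4 form a cluster of their own, 33 of the 45 pairs were positive, with a median r of 0.35, a range of -0.56 (Itm2a with Flt1) to 0.93, 17 pairs over 0.5 and 5 under -0.3, against 8.77% of pairs with other genes over 0.5.

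**Figure D4:**
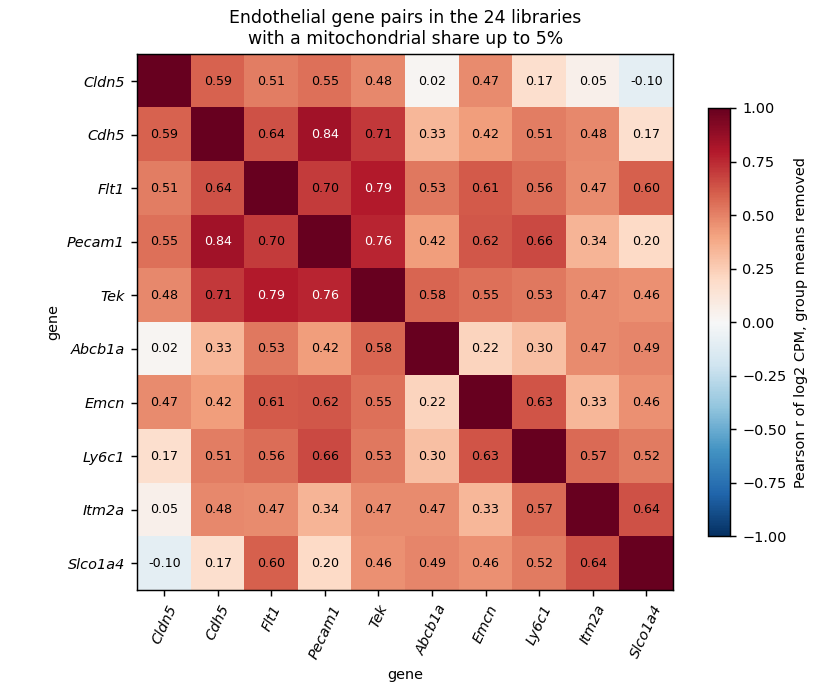
Pearson r between the log2 CPM of the endothelial genes over 24 libraries after removal of the group means. Each cell is a pair of genes on the 2 axes, red above 0 and blue below. Cdh5 with Pecam1 (0.84) and Flt1 with Tek (0.79) are the darkest pairs, and Cldn5 is near 0 with Slco1a4, Abcb1a and Itm2a.

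For the members that paired most closely outside the junction genes, Flt1 with Tek and Itm2a with Slco1a4, the 250 bases before the RefSeq transcription start on GRCm38.p6 are printed 5′ to 3′ on the strand of the gene. Capitals mark GGAAG or its reverse complement CTTCC, letters read by ETS factors, a family with endothelial regulators such as Erg and Ets1.
Flt1 (chr5:147726012-147726261, minus strand): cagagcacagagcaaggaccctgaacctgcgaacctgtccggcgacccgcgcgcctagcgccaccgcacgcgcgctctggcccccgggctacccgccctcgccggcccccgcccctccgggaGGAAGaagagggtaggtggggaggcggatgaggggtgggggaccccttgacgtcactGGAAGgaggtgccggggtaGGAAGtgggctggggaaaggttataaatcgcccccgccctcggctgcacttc
Tek (chr4:94739039-94739288, plus strand): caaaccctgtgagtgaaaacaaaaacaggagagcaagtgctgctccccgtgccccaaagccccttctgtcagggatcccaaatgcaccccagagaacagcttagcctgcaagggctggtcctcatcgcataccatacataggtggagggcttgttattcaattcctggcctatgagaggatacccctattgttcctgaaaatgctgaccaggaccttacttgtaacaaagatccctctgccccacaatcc
Itm2a (chrX:107403361-107403610, minus strand): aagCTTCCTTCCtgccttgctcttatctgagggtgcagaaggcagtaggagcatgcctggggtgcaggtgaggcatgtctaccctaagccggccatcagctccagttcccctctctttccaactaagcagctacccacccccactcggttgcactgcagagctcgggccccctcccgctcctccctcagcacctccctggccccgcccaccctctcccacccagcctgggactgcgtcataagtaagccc
Slco1a4 (chr6:141856221-141856470, minus strand): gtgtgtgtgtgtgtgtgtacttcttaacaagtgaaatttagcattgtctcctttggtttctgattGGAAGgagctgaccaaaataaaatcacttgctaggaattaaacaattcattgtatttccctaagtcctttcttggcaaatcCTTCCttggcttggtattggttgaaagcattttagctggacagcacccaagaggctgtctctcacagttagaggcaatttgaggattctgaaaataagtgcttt
The letters occurred 3 times in Flt1, 0 times in Tek, and 2 times each in Itm2a and Slco1a4, where the matches of Itm2a share a base. They were found in 64.1% of 32851 RefSeq promoters of this length, on either strand. G and C made up 70.4% of the window in Flt1, 51.2% in Tek, 62.8% in Itm2a and 39.2% in Slco1a4. A match describes letters only.

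The gene most like the mean of the 10 members in the 24 libraries was Robo4, a guidance receptor of endothelium, with a Pearson r of 0.94. Next came the chemokine Cxcl12 at 0.90, Ptprb at 0.87, the TGF-beta family receptor Acvrl1 at 0.85 and the adhesion receptor Adgrf5 at 0.84. Ccm2l, Tie1, Podxl, Esam and Tns2 completed the 10 most similar genes, at 0.79 to 0.83. The 21 other endothelial identity genes had a median r of 0.58 (range -0.12 to 0.94), pericyte markers 0.47, smooth muscle markers 0.48, microglia markers -0.00 and CA1 pyramidal markers -0.16, where the median of all genes was -0.02. Not all vessel lists were alike, since genes of activated endothelium had a median r of -0.06 and venous genes -0.11, and oligodendrocyte markers, which are no vessel genes, had 0.41. These r are given as a description.

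The other genes of the pathways did not pass in any comparison. Of 15 genes of transport across the barrier, 5 were positive and 10 negative in vorinostat against transgenic vehicle, with a median log2 fold change of -0.051. Tfrc, the transferrin receptor, was at 0.25 (SE 0.0880, edgeR adjusted p = 0.345), with 98.0 ± 5.40 CPM in vehicle and 116 ± 19.0 CPM in vorinostat libraries (SD, n = 9 each), and Slc7a5, the large amino acid carrier, at -0.18 (SE 0.121). Of 10 genes of tight and adherens junctions, 6 were positive and 4 negative (median 0.032), with the highest value, 0.18 (SE 0.0868), for the junction molecule F11r. Of 19 genes of VEGF, angiopoietin and Notch signalling, 7 were positive and 12 negative (median -0.061), from the endothelial receptor Notch4 at -0.28 (SE 0.131) to Angpt1, a ligand of Tie2, at 0.30 (SE 0.129). Of 18 genes of the Wnt signalling that maintains the barrier, 5 were positive and 13 negative (median -0.089), from the transcription factor Foxf2 at -0.29 (SE 0.162) to the ligand Ndp at 0.15 (SE 0.0786). Without the 4 libraries the medians were 0.019 for transport, 0.044 for junction, 0.02 for VEGF, angiopoietin and Notch and 0.023 for Wnt genes, so those of transport, VEGF and Wnt genes turned sign. Single values were then 0.09 for Tfrc, 0.02 for Slc7a5, 0.07 for F11r, -0.16 for Notch4, 0.03 for Angpt1, -0.08 for Foxf2 and 0.03 for Ndp. In transgenic against wildtype vehicle, 9 of 15 transport, 4 of 10 junction, 11 of 19 signalling and 11 of 18 Wnt genes were positive, and against wildtype vorinostat gave 7, 6, 9 and 4 in that order.

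Other endothelial identity genes were positive in 11 of 21 and pericyte markers in 6 of 10 with vorinostat, with medians of 0.001 and 0.022. The extremes were Vwf at -0.23 (SE 0.225) and the lectin-like receptor Cd93 at 0.15 (SE 0.151) among the former. Among pericyte markers they were the growth factor receptor Pdgfrb at -0.17 (SE 0.110) and the ATPase Atp13a5 at 0.20 (SE 0.0853). The members' median of 0.116 was thus above that of the other endothelial genes with all libraries, and without the 4 libraries the medians were 0.120 and 0.073.

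The authors' deposited table of coexpression modules placed the 10 genes in 5 of its 14 modules. In the authors' deposited table Itm2a, Tek, Slco1a4 and Abcb1a were in the purple module, which held 2666 of its 18014 genes (14.8%). The authors' deposited table put Cldn5 and Cdh5 in the cyan module (8.13% of its genes) and Pecam1 and Emcn in the yellow (6.2%). In the authors' deposited table Ly6c1 was in the black (10.7%) and Flt1 in the green module (16.5%). The authors' deposited table gave its highest membership score among the 10 to Slco1a4, at 0.88, and its lowest to Tek, at 0.34. The authors' deposited table of adjusted expression, on a log scale, gave differences between the vorinostat and transgenic vehicle means for all 10 genes. In the authors' deposited table these were 0.42 for Slco1a4, 0.30 for Itm2a, 0.26 for Ly6c1, 0.24 for Tek and 0.19 for Abcb1a. The authors' deposited table further gave 0.16 for Pecam1, 0.14 for Emcn, 0.12 for Cldn5 and Flt1 each, and -0.01 for Cdh5. In the authors' deposited table of adjusted expression the 4 libraries minus the other 24 came to -0.36 for Flt1, -0.30 for Cdh5, 0.37 for Slco1a4 and 0.35 for Itm2a, in its own log units. In the authors' deposited table only 1 of the 4 lay below the other 24 for Flt1 and for Cdh5. Above the other 24 in the authors' deposited table were 3 of the 4 for Slco1a4 and 2 for Itm2a.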

How the data were processed

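RNA of CA1 was measured in 28 libraries. The authors deposited whole-number counts per gene, and the submitters' processing notes name FastQC 0.11.5, STAR 2.5.2b, featureCounts and Subread 1.5.1 with mm10. Its annotation, strand setting and handling of reads that match several genes are not given in the sources used here, and the kit does not keep strand per the labels' protocols. The authors also deposited adjusted expression on a log scale read as log2, with the log base and model not given in the sources used here, and module membership with a score and a p-value per gene. Tables were compared only within themselves.

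Members and lists were chosen with earlier results of these data known. Symbols were matched for 99.3% of identifiers, with coordinates from GENCODE on GRCm38. edgeR 4.0.16 in R 4.3.3 (TMM, robust quasi-likelihood, minimum count 10, minimum total 15, 1 fit, 3 comparisons) tested 17009 genes, with a threshold of 0.05 on Benjamini-Hochberg adjusted p. Log2 CPM used a prior count of 2. DESeq2 1.42.0 and limma 3.58.1 (voom) served as alternatives, besides RLE scaling, no filter, covariates, blocks and left-out libraries. Transcript GC content was known for 99.7% of tested genes. The edgeR script was tested on simulated data. Named genes were the 10 members, at most the 2 highest and 2 lowest of each other list, and the 10 genes most similar to the members' mean. The same-numbered libraries of different groups showed no clear pairing (see the closing section). No label states that libraries are from different mice, so the p-values reflect only the variation among libraries, part of which may be technical. Files were compared within groups, and of 117 pairs 0 were identical.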

Additional observations from a re-analysis of the deposited data

Results flagged for a closer look

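In wildtype vehicle, 1 library lay far from the other 9 for 3 of the 10 endothelial genes, and it was wildtype vehicle 2 each time, a library with a mitochondrial share of 6.41%. Flt1 was at 18.6 CPM there, with the nearest library at 50.6 CPM. Tek was at 7.54 CPM, with the nearest at 12.6 CPM, and Abcb1a was at 13.4 CPM, with the nearest at 17.2 CPM. The gap was compared with the range of the group by Dixon's rule in 30 combinations of gene and group, where chance marks about 1 in 20. What sets this library apart was not tested.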

How the results depend on the processing

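Over all alternatives 0 of the 10 endothelial genes passed in any comparison, with a smallest adjusted p of 0.174. Their log2 fold changes kept their direction in 1139 of 1200 refits and turned in 61, all of them values that did not pass. The cause of the turns was not tested. Some of these refits left out a library of the group outside the comparison, which hardly moves its values. The share that kept direction is therefore no measure of stability. In counts of genes past the threshold, DESeq2 gave 1 (Igfbp4) and Xist as a covariate 3 (Kdm5d, Uty and Ddx3y) for vorinostat against transgenic vehicle.

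The replicate numbers of titles and descriptions showed no clear pairing of the libraries of different groups, which was read from correlations and not tested. The mean correlation of same-numbered libraries was 0.0752 by title (range -0.602 to 0.591) and 0.0455 by description (range -0.425 to 0.577). For other pairs of libraries from different groups the means were lower, at -0.0103 and -0.00664. With the title number as a replicate block 1 gene (Zfp26) passed for vorinostat against wildtype vehicle. With the description number as a replicate block Abcb1a was at -0.004 in transgenic against wildtype vehicle and Cldn5 at -0.031 in vorinostat against transgenic vehicle. The blocks turned no other endothelial gene.

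Without the 4 libraries of high mitochondrial share, transgenic against wildtype vehicle gave -0.032 for Cldn5, -0.040 for Cdh5, -0.068 for Flt1 and -0.038 for Abcb1a. Vorinostat against transgenic vehicle then gave 0.081 for Cdh5, -0.105 for Emcn, 0.157 for Flt1, 0.073 for Vwf and 0.019 for Slc7a5. Against wildtype vehicle it gave 0.041 for Cdh5, -0.030 for Pecam1, -0.164 for Emcn, -0.028 for Ly6c1 and 0.089 for Flt1. With the mitochondrial share as a covariate Abcb1a was at -0.002 in the first comparison. In the second Cdh5 was at 0.084, Emcn at -0.048, Flt1 at 0.144, Vwf at 0.047 and Slc7a5 at 0.006, and in the last Cdh5 was at 0.120, Emcn at -0.077 and Flt1 at 0.156. With hemoglobin as a covariate the second gave 0.216 for Cdh5, -0.043 for Emcn, 0.284 for Flt1, 0.187 for Vwf, 0.012 for Pdgfrb, 0.076 for Slc7a5 and 0.002 for Foxf2, and the last 0.445 for Cdh5, -0.117 for Emcn and 0.463 for Flt1. With the GC trend removed, a setting chosen after seeing the data, Abcb1a was at -0.001 in the first comparison and Emcn at -0.049 and -0.102 in the others. Abcb1a in the first was also at -0.012 by limma-voom and -0.002 in a fit of those groups alone, and Cldn5 in the second at -0.009 with Xist as a covariate.

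Leaving out each library in turn gave 0 genes past the threshold in transgenic against wildtype vehicle. It gave 0 to 1 in vorinostat against transgenic vehicle, the 1 being Igfbp4 without vorinostat 3. Against wildtype vehicle it gave 0 to 3, the 3 without wildtype vehicle 2 being Alas2, Hbb-bt and Hbb-bs, and 1 (Adm) without wildtype vehicle 5. The members' medians ran from -0.067 to 0.007, 0.078 to 0.159 and 0.023 to 0.130 in the 3 comparisons, the lowest of the last without wildtype vehicle 2. In the first comparison Cldn5 ran from -0.031 to 0.160, Cdh5 from -0.041 to 0.122 and Flt1 from -0.069 to 0.070, each lowest without wildtype vehicle 2, Emcn from -0.121 to 0.021 and Abcb1a from -0.048 to 0.051. Cldn5 ran from -0.043 to 0.112 in the second, and Pecam1 from -0.019 to 0.067, Emcn from -0.019 to 0.084 and Flt1 from -0.143 to 0.030 in the last. Of the 10 genes most similar to the members' mean, 4 were shared when all 28 libraries were used and 7 with Spearman's rho. Totals of 20230085 to 33191857 counts gave the members 48 to 2214 counts per library, and standard errors of 0.0812 to 0.201 (log2). Differences well above a standard error did not pass either. In vorinostat against transgenic vehicle Slco1a4 at 0.37 (SE 0.113) and Itm2a at 0.32 (SE 0.0834) each had an edgeR adjusted p of 0.345.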

Other observations

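Genes of vessel segments and of activated endothelium were also read in vorinostat against transgenic vehicle, where 0 passed. Of 8 arterial genes 1 was positive and 7 negative, with a median log2 fold change of -0.052. Of 5 venous genes 1 was positive and 4 negative (median -0.004), and of 6 capillary genes 2 were positive and 4 negative (median -0.031). Of 10 genes of activated endothelium 6 were tested, with 2 positive and 4 negative (median -0.106), and Sele, Selp, Lcn2 and Ccl2 did not pass the low-count filter. Lrg1, a secreted glycoprotein of activated vessels, had the lowest value among them, at -0.58 (SE 0.201, edgeR adjusted p = 0.345), from 0.958 ± 0.304 CPM in transgenic vehicle to 0.634 ± 0.174 CPM in vorinostat libraries (SD, n = 9 each). It was at -0.44 without the 4 libraries of high mitochondrial share.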
